A study of Rattus norvegicus with 11 samples.

Results

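A set of 10 genes known for their response to nerve injury was followed in cultured rat sensory neurons, namely Atf3, Sox11, Klf6, Gadd45a, Gap43, Stmn2, Sprr1a, Csrp3, Flrt3 and Ecel1. They were chosen by name, and all 10 have a row among the 22076 rows with values in the expression table, which covers 11 libraries. Neurons came from dorsal root ganglia (DRG, the ganglia that hold the cell bodies of body sensory neurons) of wild type Sprague-Dawley embryos at embryonic day 15, and were purified by immunopanning, a selection of cells on antibody-coated dishes. The cultures were left untreated (n = 3), or received Schwann cell conditioned medium (SCCM, n = 4) or 1 µM prostaglandin E2 (PGE2, n = 4) overnight from day 13 in culture, and RNA was taken on day 14. Each library stands for the pooled embryos (10 to 18) of 1 pregnant rat, so the spread between libraries is a spread between such pools.

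When a peripheral axon is cut, the sensory neuron switches on a set of transcription factors, among them Atf3, Sox11 and Klf6, and with them proteins of the growing axon. Growth-associated genes such as Gap43 and Stmn2 are already abundant while axons first grow in the embryo, whereas Atf3 and Sprr1a are near silent in intact adult sensory neurons and rise steeply after axotomy. Dissection of a ganglion also cuts its axons.

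All 10 neuronal markers reached at least 1 FPKM (fragments per kilobase of transcript, scaled to the mapped fragments of the library), and Tubb3, the neuronal tubulin, lay between 828 and 1659 FPKM. Of the markers with a row, 8 of 15 for Schwann cells and satellite glia, 9 of 12 for fibroblasts and meninges, 8 of 10 for endothelial and mural cells, and 11 of 11 for macrophages and immune cells stayed under 1 FPKM in every library. The 7 glial markers that reached 1 FPKM included Cadm4 (107 to 242 FPKM), Pmp22 (21.6 to 85.0 FPKM), S100b (0.19 to 9.23 FPKM) and Apoe (0.09 to 9.20 FPKM). The summed level of the 15 was 164 to 275 FPKM, with Cadm4 the most abundant, and its part in the members' levels was not tested. The deepest library was 1.32-fold deeper than the shallowest, an estimate read off the spacing of the lowest values. SCCM replicates 2 and 3 and PGE2 replicates 3 and 4 stood apart on the first principal component of all tested genes (56.0% of the variance), with scores of 40.0 to 55.8 against −60.8 to 7.62 in the other 7 libraries. They also had the fewest genes above 0 FPKM (15664 to 15946 against 15954 to 17137). The 10 most abundant genes took 9.26 to 11.2% of FPKM there, 12.0% in SCCM replicate 4 and 6.70 to 7.70% in the remaining libraries. Mitochondrially encoded genes took 3.71 to 8.14% in those 4 libraries and 3.20 to 10.9% in the other 7.

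Atf3 encodes a stress-induced transcription factor of the ATF/CREB family and is a widely used marker of an axotomised sensory neuron. It measured 11.6, 47.8 and 56.5 FPKM in untreated replicates 1 to 3, 48.2, 3.76, 8.38 and 56.7 FPKM in SCCM replicates 1 to 4, and 115, 58.0, 2.53 and 1.02 FPKM in PGE2 replicates 1 to 4. Both the highest and the lowest library were PGE2 libraries, 113-fold apart, and the 3 groups overlapped widely. Group means were 38.6 ± 23.8 FPKM untreated (SD, n = 3), 29.3 ± 27.1 FPKM in SCCM (SD, n = 4) and 44.2 ± 54.2 FPKM in PGE2 (SD, n = 4). In these bulk samples, fewer neurons expressing a gene and less RNA per neuron cannot be told apart.

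Klf6, a zinc-finger transcription factor that favours axon regrowth in zebrafish retinal neurons, varied over a smaller range. It measured 10.8, 22.7 and 16.3 FPKM untreated, 22.0, 6.38, 8.61 and 12.6 FPKM in SCCM, and 10.1, 18.6, 8.80 and 6.52 FPKM in PGE2. Its 4 lowest libraries were the same as those of Atf3, and the groups overlapped.

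Sox11, a transcription factor of immature neurons that is induced again by axotomy, was the member with the steadiest untreated level, at 23.6, 24.1 and 23.8 FPKM. It measured 28.8, 18.6, 27.3 and 71.7 FPKM in SCCM and 18.6, 19.0, 12.0 and 6.79 FPKM in PGE2. All 4 PGE2 libraries lay below all 3 untreated libraries, whereas SCCM libraries lay on both sides of them. The highest value, in SCCM replicate 4, was 10.6-fold above the lowest, in PGE2 replicate 4.

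Gadd45a, a growth-arrest and DNA-damage inducible gene that is also raised in axotomised sensory neurons, was abundant throughout. It measured 123, 212 and 228 FPKM untreated, 176, 87.7, 102 and 176 FPKM in SCCM, and 392, 266, 178 and 90.9 FPKM in PGE2. Every SCCM library lay within or below the untreated range, and PGE2 libraries lay above, within and below it.

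Gap43, a membrane-bound protein of growth cones, and Stmn2, a tubulin-binding stathmin of growing axons, were the abundant members, and stood at percentiles 99.8 and 99.97 of the mean level over all rows. Gap43 measured 627, 487 and 388 FPKM untreated, 550, 594, 779 and 705 FPKM in SCCM, and 625, 554, 562 and 734 FPKM in PGE2. Its full range was 2.01-fold, and the lowest 2 libraries were untreated replicates 3 and 2. Stmn2 measured 2440, 2439 and 1836 FPKM untreated, 2465, 2030, 2033 and 1617 FPKM in SCCM, and 2710, 2709, 2081 and 2288 FPKM in PGE2, a full range of 1.68-fold. The 4 lowest libraries of neither gene were those of Atf3.

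Sprr1a, a small proline-rich protein first known from keratinocytes that promotes axon outgrowth in injured sensory neurons, was split within each treated group. It measured 5.74, 5.60 and 1.26 FPKM untreated, 14.1, 0.09, 0.09 and 16.7 FPKM in SCCM, and 5.43, 2.57, 0.19 and 0 FPKM in PGE2. SCCM thus held both the highest values of the series and values near 0. RefSeq holds Sprr1b as a gene of its own and lists that name as a synonym of Sprr1a too. Sprr1b has its own row (0 to 2.91 FPKM), and how fragments of this family were divided between both rows is uncertain. Of 10 keratinocyte markers with a row, 9 stayed under 1 FPKM in every library, and Krt5 and Krt14, which define basal keratinocytes, did not exceed 0.02 FPKM.

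Csrp3, a muscle LIM-domain protein that injured adult sensory neurons also make, was close to the lower end of the table. It was listed at 0 in 5 libraries and at 0.08 to 0.24 FPKM in 5 others, and reached 1.83 FPKM in SCCM replicate 4. With a mean of 0.251 FPKM it was the member that missed the minimum of 1 FPKM for testing, so 9 of the 10 genes were tested. Of 20 striated muscle markers, 13 stayed under 1 FPKM in every library, among them the troponin genes Tnnt2, Tnnt3 and Tnni2, listed at 0 throughout, and 7 reached 1 FPKM. The latter included the actin genes Actc1 (1.43 to 40.2 FPKM) and Acta1 (3.25 to 15.1 FPKM) and the troponin gene Tnnc1 (3.79 to 8.74 FPKM). Actc1, like Csrp3, was highest in SCCM replicate 4, whereas Des (0.11 FPKM) and Ckm (0.14 FPKM) were lowest there. The summed level was highest in SCCM replicate 1 (62.0 FPKM, against 55.5 FPKM in SCCM replicate 4). The summed level of the 20 markers was 25.9 to 54.3 FPKM untreated, 37.1 to 62.0 FPKM in SCCM and 16.5 to 35.0 FPKM in PGE2, and its part in the Csrp3 values was not tested.

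Flrt3, a leucine-rich repeat adhesion protein that promotes neurite growth, was low in the same libraries as Sprr1a. It measured 29.3, 21.1 and 25.1 FPKM untreated, 33.5, 4.49, 10.9 and 47.9 FPKM in SCCM, and 65.2, 18.2, 3.58 and 7.54 FPKM in PGE2. Its untreated values spanned 1.39-fold, against 10.7-fold in SCCM and 18.2-fold in PGE2. Ecel1, a membrane protease-like protein strongly induced by nerve injury, measured 2.87, 2.74 and 2.49 FPKM untreated, 3.78, 0.82, 2.48 and 3.75 FPKM in SCCM, and 1.76, 2.25, 0.37 and 1.04 FPKM in PGE2. As for Sox11, all PGE2 libraries lay below all untreated libraries, and SCCM libraries lay on both sides.

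**Figure D1:**
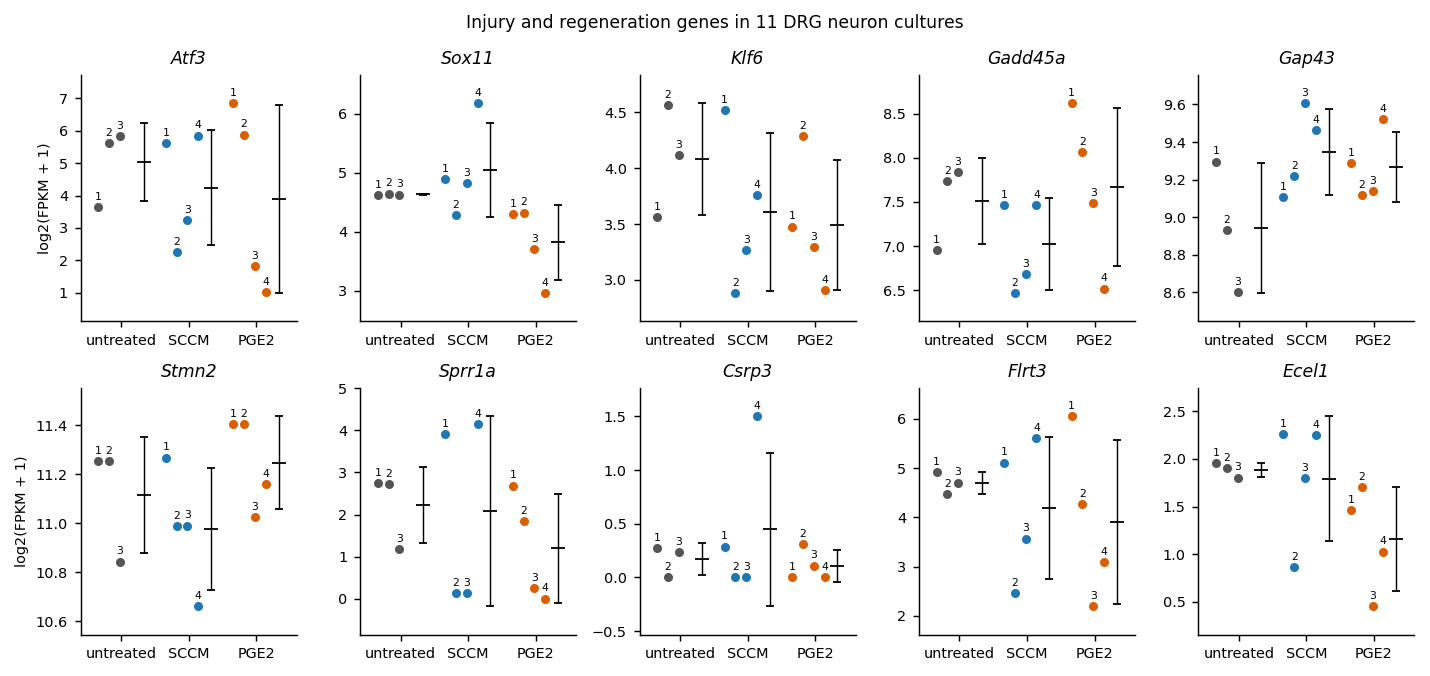
Levels of the 10 genes as log2(FPKM + 1) in untreated, SCCM and PGE2 libraries; each point is a library with its replicate number, and bars give the mean and SD of the group. Axes differ between panels and do not start at 0. Atf3, Sprr1a and Flrt3 split within SCCM and PGE2, whereas Gap43 and Stmn2 span 2.01-fold and 1.68-fold.

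The tested members ranged from among the most variable genes of the table to steadier than its median. Atf3 had a within-group SD of 2.17 on the log2(FPKM + 1) scale, the rank 4 among 12107 tested genes counted from the most variable, Sprr1a had 1.65 (rank 25) and Flrt3 had 1.35 (rank 93). The median over all tested genes was 0.35. Gadd45a (0.68), Sox11 (0.63), Klf6 (0.61) and Ecel1 (0.52) lay above that median, and Gap43 (0.25) and Stmn2 (0.22) below it. Treatment group accounted for 5.72% of the variance of Atf3 over the libraries, 6.97% for Flrt3 and 9.53% for Sprr1a, against a median of 25.0% over all tested genes and 49.5% for Sox11. These shares were not adjusted for the number of groups, and a share of this kind also arises without any treatment effect.

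**Figure D2:**
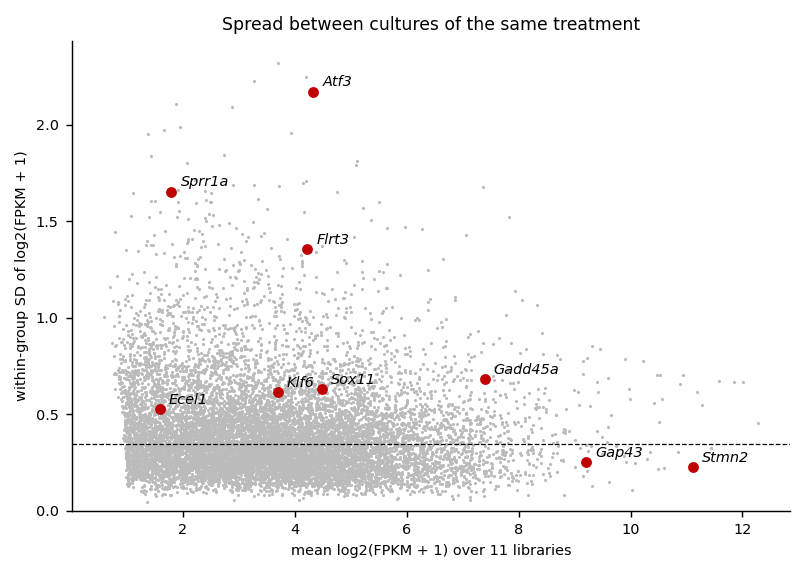
Within-group SD of log2(FPKM + 1) against the mean level of 12107 tested genes (grey), with the 9 tested genes named in red and the median SD over all tested genes as a dashed line. Atf3, at 2.17, lies among the most variable genes at its level, and Gap43 and Stmn2 lie under the dashed line.

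The same libraries were low for several members. SCCM replicates 2 and 3 and PGE2 replicates 3 and 4 were the 4 lowest libraries for Atf3, Sprr1a, Flrt3 and Klf6, which makes 4 of the 9 tested genes, against 19.0% of all tested genes. The 4 libraries were picked with the members' values known, so that count is a description and not evidence of an excess. Atf3 ran from 1.02 to 8.38 FPKM in those 4 libraries and from 11.6 to 115 FPKM in the other 7, Sprr1a from 0 to 0.19 and from 1.26 to 16.7 FPKM, and Flrt3 from 3.58 to 10.9 and from 18.2 to 65.2 FPKM. For Klf6, the values of 6.38 to 8.80 FPKM lay just under the 10.1 to 22.7 FPKM of the others. These are the libraries set apart by the first principal component. They also had the fewest genes above 0 FPKM, by a narrow margin (up to 15946 against at least 15954). These members themselves contribute to both measures, and the part of those library differences in the levels was not tested. Some markers moved with the same libraries, in either direction. The summed level of the 12 fibroblast and meninges markers was 4.4 to 5.58 FPKM in those 4 libraries and 5.94 to 17.0 FPKM in the other 7, mostly from Col6a2 (1.23 to 1.51 and 2.93 to 13.3 FPKM), while Col1a1, Col3a1, Dcn and Lum did not exceed 0.20 FPKM anywhere. Pdgfra, of the same list, was instead higher in those 4 libraries (2.56 to 3.74 against 1.24 to 2.38 FPKM). So was the glial marker Cdh19 (0.58 to 1.02 against 0.06 to 0.57 FPKM). The neuronal marker Nefl was higher there (1800 to 2372 against 476 to 1420 FPKM), and the summed level of the 10 neuronal markers was 9576 to 10847 against 5312 to 10079 FPKM. Other neuronal markers did not follow Nefl. Tubb3 overlapped (1030 to 1629 against 828 to 1659 FPKM). Isl1 was at 8.45 to 11.48 FPKM there, at 4.55 FPKM in PGE2 replicate 1 and at 12.94 to 22.8 FPKM in the rest. The part of these markers in the members' levels was not tested. Of the 10 genes, between 0 and 2 exceeded their own median over the 11 libraries in each of those 4 libraries, and between 5 and 8 did so in each of the others, which restates the same split of libraries.

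**Figure D3:**
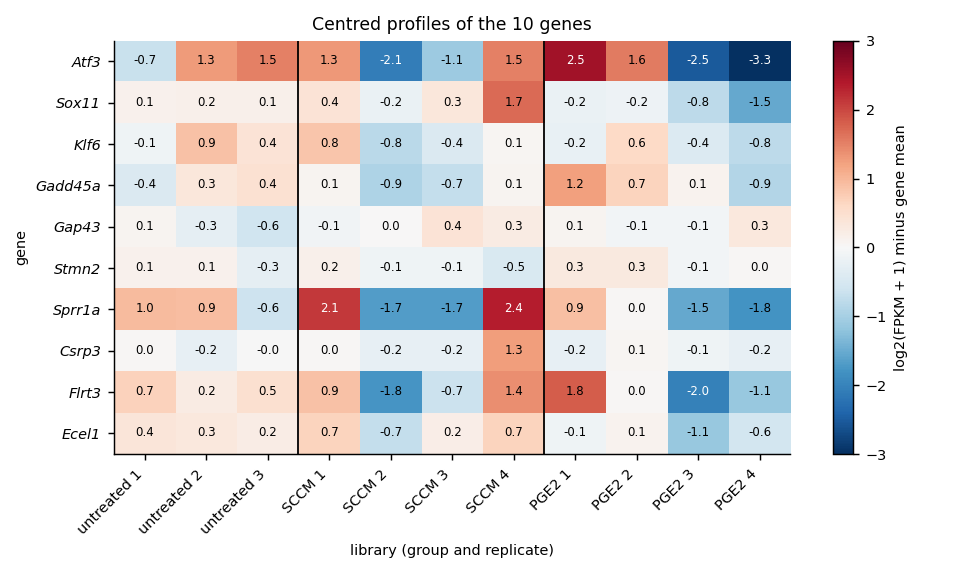
Level of each of the 10 genes in each library as log2(FPKM + 1) minus the mean of the gene over the 11 libraries, with vertical lines between the untreated, SCCM and PGE2 groups. Blue cells gather in SCCM replicates 2 and 3 and PGE2 replicates 3 and 4 for Atf3, Sprr1a, Flrt3 and Klf6, and the Gap43 and Stmn2 rows are pale.

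Upstream sequence was available for 6 members (Sprr1a, Flrt3, Gadd45a, Sox11, Ecel1 and Klf6), from RefSeq on the build GRCr8, as the 250 bases before the annotated start of each gene. Motifs, 3 in number, were searched on both strands, where a match is a description and not a binding site: TGANTCA, the AP-1 motif bound by Jun and Fos family dimers, TGACGTCA, the cAMP response element bound by ATF and CREB proteins, and TGACATCA, a close relative of the latter that was added after the sequences had been read. No match in the member windows overlapped another. Sprr1a held TGANTCA 2 times, 147 and 117 bases before the start, and was the only member of the 6 with it. Of 33469 promoters 6.34% held it, and of the promoters of tested genes 3.94%. TGACGTCA was found in none of the 6 (1.59% of all promoters and 2.92% of those of tested genes). TGACATCA was found in Sprr1a, Flrt3, Klf6 and Sox11, 4 of the 6, against 3.80% of all promoters and 1.45% of the 9737 promoters of tested genes. The Sprr1a window (chr2:180752626-180752875, minus strand) is shown whole because it holds both kinds of match, and the others are shown as 60 bases around TGACATCA or its reverse complement TGATGTCA (Flrt3, chr3:148461458-148461517, Klf6, chr17:69458577-69458636, and Sox11, chr6:49738812-49738871, all on the minus strand). Each reads 5′ to 3′ on the strand of the gene, and capitals mark the matches.
Sprr1a: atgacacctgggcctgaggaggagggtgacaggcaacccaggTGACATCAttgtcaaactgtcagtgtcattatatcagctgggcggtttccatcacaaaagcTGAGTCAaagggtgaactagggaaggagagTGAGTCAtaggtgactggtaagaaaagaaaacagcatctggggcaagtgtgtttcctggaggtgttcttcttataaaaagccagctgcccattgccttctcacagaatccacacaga
Flrt3: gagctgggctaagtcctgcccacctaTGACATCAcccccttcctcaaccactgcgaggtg
Klf6: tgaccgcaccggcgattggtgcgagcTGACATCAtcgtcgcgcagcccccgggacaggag
Sox11: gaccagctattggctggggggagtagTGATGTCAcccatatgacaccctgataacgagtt

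Of these 4 genes, Sprr1a, Flrt3 and Klf6 shared their 4 lowest libraries and Sox11 did not. Gadd45a and Ecel1, whose windows held none of the 3 motifs, did not share them. TGACATCA and the 4 libraries were both picked with these genes in view, and a link between motif and level was not tested.

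Treatments were compared over libraries in 1 limma model of all 12107 tested genes. SCCM was first set against no treatment, the comparison that asks how the conditioned medium acts on the neurons. None of the 9 tested genes passed an adjusted p under 0.05 (limma, lowest adjusted p = 0.362), as for 0% of all tested genes, and 0 of 9 had an unadjusted p under 0.05, against 13.6% of all. The SCCM libraries of 0 of 9 lay all above or all below the untreated ones, against 4.72% of all tested genes above and 5.87% below. Mean log2(FPKM + 1) was higher for 2 of the 9 genes and lower for 7 (61.3% of all tested genes were lower), with a median difference of −0.14 over the 9 genes and −0.13 over all. Gap43 differed by 0.40 (95% interval −0.061 to 0.87, limma adjusted p = 0.362) and Sox11 by 0.42 (−0.51 to 1.34, limma adjusted p = 0.579). The intervals of the variable members were wide: Atf3 differed by −0.80 (−3.86 to 2.26), Flrt3 by −0.51 (−2.43 to 1.41) and Sprr1a by −0.14 (−2.48 to 2.20). Klf6 differed by −0.47, Gadd45a by −0.49, Stmn2 by −0.14 and Ecel1 by −0.094. With weights per library, 6 of the 9 genes and 7314 of all tested genes were called. Untreated replicate 2 carried a weight of 41.1 in that fit, and no other library exceeded 1.89. With the share of the 10 most abundant genes as a covariate, added after seeing the data, the 7 lower genes had values from 0.019 (Gadd45a) to 0.97 (Sprr1a). That share was 7.33 to 7.70% in untreated and 7.04 to 12.0% in SCCM libraries, and Stmn2 can itself be part of it.

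PGE2 against no treatment asks what the prostaglandin does by itself, and uses the same 3 untreated libraries. Sox11 and Ecel1 were the 2 members whose PGE2 libraries all lay below the untreated ones, where 3.58% of tested genes did so and 5.33% did not overlap in either direction. For Sox11 the untreated level was 23.8 ± 0.229 FPKM (SD, n = 3) and the PGE2 level 14.1 ± 5.85 FPKM (SD, n = 4), a difference of −0.81 (95% interval −1.74 to 0.11, limma adjusted p = 0.538). For Ecel1 these levels were 2.70 ± 0.193 FPKM (SD, n = 3) and 1.36 ± 0.824 FPKM (SD, n = 4), a difference of −0.72 (−1.53 to 0.081, limma adjusted p = 0.538). Neither passed, and the number of the 9 genes called was 0 (0% of all tested genes), with 0 of 9 at an unadjusted p under 0.05 against 5.72% of all (1.68% higher and 4.04% lower). Means were higher for 3 of the 9 and lower for 6 (67.1% of all tested genes were lower). Atf3 differed by −1.14 (−4.20 to 1.92), Sprr1a by −1.02 (−3.37 to 1.32), Flrt3 by −0.80 (−2.72 to 1.12) and Klf6 by −0.59 (−1.50 to 0.32). Gap43 differed by 0.32 (−0.14 to 0.79), Gadd45a by 0.16 and Stmn2 by 0.13. The median over the 9 genes was −0.72 and that over all tested genes −0.16. Single libraries moved several of these differences by over 1.5 times. Without PGE2 replicate 4, Sox11 was at −0.53 and Atf3 at −0.18. Without PGE2 replicate 1, Atf3 was at −2.13 and Flrt3 at −1.51. Over all libraries left out in turn, Atf3 ran from −2.13 to −0.18, Flrt3 from −1.51 to −0.23, Sprr1a from −1.54 to −0.63 and Klf6 from −0.85 to −0.35.

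The treated groups were then set against each other, SCCM against PGE2. Sox11 had the higher mean in SCCM, where it measured 36.6 ± 23.9 FPKM (SD, n = 4), beside the PGE2 level of 14.1 ± 5.85 FPKM (SD, n = 4), a difference of 1.23 (95% interval 0.37 to 2.08, unadjusted p = 0.0090). It did not pass adjustment over all genes (limma adjusted p = 1.00), and SCCM replicate 2, at 18.55 FPKM, lay below PGE2 replicates 1 (18.61 FPKM) and 2 (19.03 FPKM). Over all alternatives that difference ran from 0.80 with array weights to 1.48 without SCCM replicate 2, and without SCCM replicate 4 it was 0.85. Of the 9 genes 0 were called (0.00826% of all tested genes, which is Sbno2 and no member), and 1 of 9 had an unadjusted p under 0.05 against 3.28% of all (2.51% higher and 0.768% lower). The groups overlapped for all 9 (2.21% of all tested genes did not overlap), and means were higher in SCCM for 7 of the 9 (53.4% of all tested genes). Ecel1 differed by 0.63 (−0.12 to 1.38), Gadd45a by −0.65 (−1.57 to 0.27), Sprr1a by 0.88 (−1.28 to 3.05), Stmn2 by −0.27 (−0.71 to 0.16) and Atf3 by 0.34 (−2.49 to 3.18). Flrt3, Klf6 and Gap43 differed by 0.29, 0.12 and 0.082. In all 3 comparisons the intervals of Atf3, Sprr1a and Flrt3 left room for differences of more than 1 log2 unit in either direction.

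**Figure D4:**
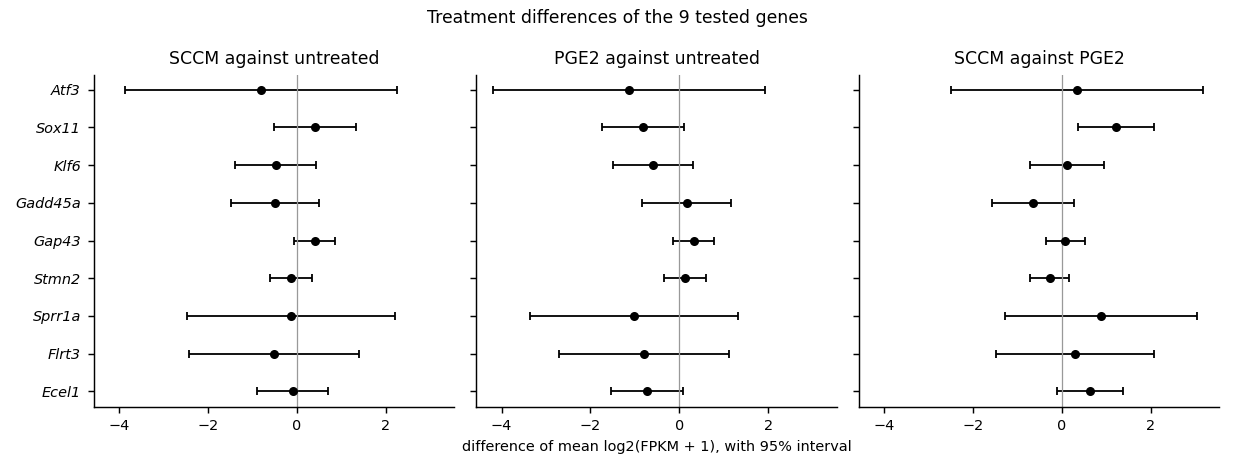
Differences of mean log2(FPKM + 1) of the 9 tested genes in the 3 comparisons, with 95% intervals from limma. Intervals of Gap43 and Stmn2 are narrow and those of Atf3, Sprr1a and Flrt3 wide, and in SCCM against PGE2 the interval of Sox11 (0.37 to 2.08) lies above 0.

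Other genes of the injury and regeneration response were read from the same fit. Of 47 further regeneration-associated genes with a row, 37 were tested and 0 were called in any of the 3 comparisons. In SCCM against untreated, 8 had an unadjusted p under 0.05 with higher means and 0 with lower means, where all tested genes had 4.85% and 8.76%. Reg3b, a secreted lectin induced in injured sensory neurons, measured 1.33, 5.01, 17.2 and 26.5 FPKM in SCCM replicates 1 to 4. All 3 untreated libraries list it at 0, as do the PGE2 libraries except replicate 1 (0.09 FPKM). Its adjusted p was 0.357 against untreated and 0.776 against PGE2 (limma), and without SCCM replicate 1 it was called in both (limma adjusted p = 0.048 and 0.028). Chl1, an adhesion molecule of growing axons, measured 9.20, 12.0 and 4.13 FPKM untreated and 16.0, 26.2, 22.0 and 41.6 FPKM in SCCM, a difference of 1.56 (SE 0.42, limma adjusted p = 0.357) with no overlap between those groups (4.72% of tested genes did not overlap in this direction). Ngfr, the low-affinity neurotrophin receptor, differed by 1.29, and Arg1, an arginase that aids regeneration, by −1.38.

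In PGE2 against untreated, the largest differences among these genes were those of Gal (−2.19), Arg1 (−1.78), Nts (−1.34) and Cdkn1a (−1.33), each with a limma adjusted p of 0.538 to 0.563. Gal, which encodes the neuropeptide galanin, measured 86.6, 10.8 and 23.0 FPKM untreated and 33.2, 16.5, 0.47 and 0.88 FPKM in PGE2, and groups overlapped. In SCCM against PGE2, Reg3b was followed by Socs3 (1.75), a feedback inhibitor of cytokine signalling that limits axon regrowth, Gadd45g (1.35) and Gal (1.16). Gal, Nts, Arg1, Cd44, Lgals1, Plat, Lif and Cdkn1a had the same 4 lowest libraries as Atf3, 8 of 37 tested genes, a share of 21.6% beside the 19.0% of all tested genes.

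Kinases and scaffolds that carry the injury signal from axon to nucleus were read next. Of 14 tested genes 0 were called in each comparison (lowest limma adjusted p = 0.357), with medians of 0.13, 0.073 and 0.011 in SCCM against untreated, PGE2 against untreated and SCCM against PGE2, beside −0.13, −0.16 and 0.020 over all tested genes. At an unadjusted p under 0.05, 3 of the 14 were higher and 0 lower in SCCM against untreated (4.85% and 8.76% of all), and again 3 and 0 in PGE2 against untreated (1.68% and 4.04% of all). Map3k12, which encodes the sensor kinase DLK, lay between 19.8 and 34.9 FPKM in every library. Mapk10, the neuronal JNK, differed by 0.86 in SCCM and 0.91 in PGE2 from untreated, and the phosphatase gene Dusp1 by −1.13 and −0.84. Mapk9, Mapk10, Map2k4 and Mapk8ip3 were highest in the 4 libraries in which Atf3 was lowest (4 of 14, against 5.23% of all tested genes). Genes of axon maintenance and degeneration had 0 of 11 called, with Capn1, a calpain protease, at 1.40 in SCCM and 1.16 in PGE2 against untreated, and Nampt, an enzyme of NAD synthesis, at −0.70 and −0.48. Those same 4 treated libraries were the highest for Capn1 (39.83 to 57.91 against 5.13 to 33.55 FPKM). They were the lowest for Nampt (10.08 to 13.63 against 15.97 to 26.82 FPKM). Of the 11 genes, 2 were highest there and 2 lowest, against 5.23% and 19.0% of all tested genes.

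Growth cone cytoskeleton genes had higher means in SCCM than in untreated libraries for 14 of 19 tested genes and in PGE2 for 15 of 19, where 38.7% and 32.9% of all tested genes did, with medians of 0.36 and 0.22. The 10 neuronal markers, of which Tubb3 is on both lists, had higher means for 7 of 10 in SCCM (median 0.37) and 6 of 10 in PGE2 (median 0.15). Dpysl2, Dpysl5 and Dclk1, 3 of the 19 (15.8%, against 5.23% of all tested genes), were highest in the 4 treated libraries in which Atf3 was lowest, with Dpysl2 at 334 to 434 FPKM there and 177 to 281 FPKM elsewhere. The part of neuronal marker level and of those libraries in the growth cone values was not tested. These comparisons share the untreated libraries, and 0 of 19 genes were called in either (limma). Dpysl4, a collapsin response mediator, measured 22.1, 21.8 and 14.2 FPKM untreated, 29.6, 51.8, 60.7 and 50.4 FPKM in SCCM, and 22.4, 26.7, 37.7 and 36.6 FPKM in PGE2. Both treated groups lay above the untreated group, with differences of 1.25 (SE 0.28, limma adjusted p = 0.357) and 0.64 (SE 0.28, limma adjusted p = 0.538). Of all tested genes, 4.72% lay wholly above untreated in SCCM and 1.75% in PGE2. The lowest PGE2 library, at 22.42 FPKM, stood just over the highest untreated one, at 22.11 FPKM. Map1b, a microtubule-associated protein of growing axons, differed by 0.94 and 0.96, and Marcks, a membrane-linked actin regulator, by 1.07 in SCCM.

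**Figure D5:**
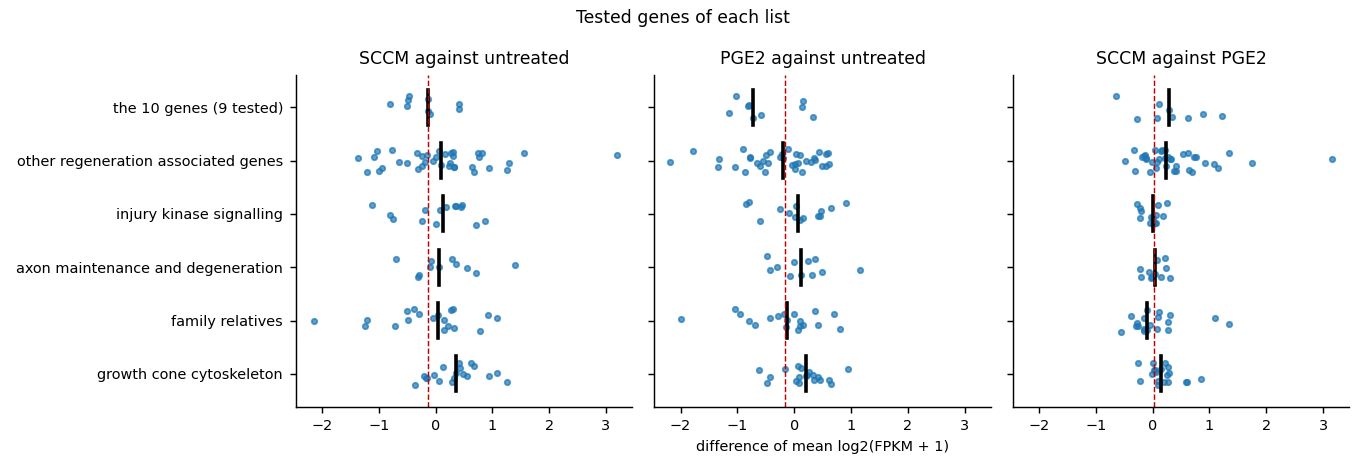
Differences of mean log2(FPKM + 1) for every tested gene of the 6 gene lists in the 3 comparisons (points), with the median of each list (black bar) and of all tested genes (red dashed line). The growth cone list has a median of 0.36 in SCCM against untreated, and points of the regeneration lists lie on both sides of 0.

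Genes whose profile over the 11 libraries was most like that of a variable member were found by the root mean square (RMS) difference between centred log2(FPKM + 1) profiles, as a description. Nearest to Atf3 were Tmem86a (RMS 0.62), Hilpda (0.79), a lipid-droplet gene induced by hypoxia, and Slc2a1 (0.82), the glucose transporter GLUT1. Nearest to Sprr1a were Nts (0.48), which encodes neurotensin and is itself on the regeneration list, Cbln2 (0.63) and Tslp (0.66). Flrt3 was nearest to Timp3 (0.31), a metalloproteinase inhibitor, Prrg4 (0.37) and Glul (0.49), which encodes glutamine synthetase. Timp3 and Prrg4 had their highest level in PGE2 replicate 1 and their lowest in SCCM replicate 2. Sox11 was nearest to Shf (0.28), Coq8b (0.29) and AABR07002848.1 (0.33), all highest in SCCM replicate 4 and lowest in PGE2 replicate 4, as Sox11 was. Gadd45a was nearest to Lypd6 (0.26), Zfyve21 (0.28) and Fgf9 (0.31), Ecel1 to Homer2 (0.20), Homer3 (0.22) and Lmo2 (0.25), and Klf6 to Syce1l, Fam43a and LOC100909474 (0.14 each). The measure is small for any pair of genes that vary little, so distances are not compared between members.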

How the data were processed

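The authors deposited FPKM values, 1 column per library with 2 decimals, computed from stranded mRNA libraries made by poly-A selection, per the labels. The submitters' processing notes name the build Rnor 6.0. For aligner, counting tool and annotation, the name is not given in the sources used here. Without read totals, counting error could not be computed. Relative depth was read off the spacing of low values, and the log2 ratios of 165 of 165 library triples summed to within 0.1 of 0. The 207489 lines without values were left out.

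The 12107 genes whose mean reached 1 FPKM were transformed as log2(FPKM + 1), which understates changes of low genes, and fitted in 1 limma model with 3 groups (limma 3.58.1, R 4.3.3, eBayes with an intensity trend, two-sided, Benjamini-Hochberg adjustment over all tested genes, called under 0.05). The test was checked on simulated data with noise drawn independently for each gene and library. That check does not cover variation shared by many genes, such as the first principal component. No count model was used because FPKM are not counts. The labels give no batch.

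The 10 genes, the other lists and the tests were chosen with earlier results of these data known, so lists are described by counts and medians, with no set test. The naming rule took all 10 genes, up to 4 genes of each other list per comparison (the called ones or, with none, those with the largest differences), from which the text prints a part, and the 3 nearest profiles of each member with an SD of at least 0.5. Genes named for sharing their lowest or highest libraries with Atf3, and those in the closing section, were chosen after their values were seen. Other gene names are as in the table, of which 18420 matched a RefSeq symbol or synonym (GRCr8, used for names and promoters only). Replicate numbers occur in all groups, and the sources used here do not say whether they mark shared preparations. Libraries were not treated as paired in the main model. Correlations of deviations from group means ran from −0.51 to 0.49 over 10 same-numbered pairs. With so few libraries per group, that check cannot exclude shared preparations.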

Additional observations from a re-analysis of the deposited data

How the results depend on the processing

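The 9 tested genes had 0 calls in each comparison under every alternative run except array weights, with which SCCM against untreated had 7314 genes and 6 of the 9 called (Atf3 −2.18, Gadd45a −0.95, Gap43 0.45, Klf6 −1.26, Sprr1a −1.71, Stmn2 −0.28). PGE2 against untreated then had 2 genes called, and SCCM against PGE2 turned for Atf3 (−1.32), Flrt3 (−0.81), Klf6 (−0.27) and Sprr1a (−0.58). The weight of 41.1 on untreated replicate 2 shapes that fit. In SCCM against untreated, Ecel1 was 0.0034 and Stmn2 0.013 with median-ratio scaling, and Ecel1 was 0.091 and Sprr1a 0.071 with quantile normalization. Those scalings moved the median of all genes from −0.13 and −0.16 (SCCM and PGE2 against untreated) to about 0, so changes of that size are not told from scaling. With covariates added after seeing the data, Ecel1 was 0.047 (mitochondrial share), and with the share of the 10 most abundant genes Atf3 was 0.90, Ecel1 0.18, Flrt3 0.32, Gadd45a 0.019, Klf6 0.076, Sprr1a 0.97 and Stmn2 0.15, and Gap43 −0.058 in SCCM against PGE2. Stmn2, at percentile 99.97 of the mean level over all rows, can itself be part of the latter share. The gene called in SCCM against PGE2 (Sbno2) fell to 0 calls with a pseudocount of 0.1, without a filter and with either covariate. With a replicate block, which the data do not bear out as a pairing (2 of 11 libraries correlated best with their own number), it also fell to 0 calls, no member was called, and genes at an unadjusted p under 0.05 went from 1648, 692 and 397 to 772, 229 and 365.

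Leaving out each library in turn gave 0 to 1 genes called in SCCM against untreated and 0 to 1 in SCCM against PGE2. Member differences that turned were, in SCCM against untreated, Sprr1a (−0.83 to 0.51), Ecel1 (−0.25 to 0.22) and Flrt3 (−0.99 to 0.065), in PGE2 against untreated, Gadd45a (−0.15 to 0.55) and Stmn2 (−0.0049 to 0.21), and in SCCM against PGE2, Atf3 (−0.62 to 1.33), Flrt3 (−0.28 to 1.00), Klf6 (−0.19 to 0.38) and Gap43 (−0.0046 to 0.17). Ecel1 and Sprr1a were not tested with a minimum of 5 FPKM. Except where a value shows it, the cause was not tested. Csrp3, under 1 FPKM in 10 of the 11 libraries, differed without a filter by 0.28, −0.066 and 0.34 in the 3 comparisons.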

Other observations

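Relatives of the 10 genes did not all share their profiles. Of the stathmins, Stmn3 lay between 245 and 334 FPKM in every library, whereas Stmn4 ran from 30.3 to 58.9 FPKM in SCCM replicates 2 and 3 and PGE2 replicates 3 and 4 and from 114 to 268 FPKM in the others. Those 4 libraries were the lowest for 3 of 19 tested relatives (15.8%), namely Stmn4, Gadd45b and Csrp1, against 19.0% of all tested genes. Basp1, a growth cone protein often grouped with Gap43, lay between 902 and 1164 FPKM. Gadd45b measured 0.99, 11.9 and 47.1 FPKM in the untreated libraries, where Gadd45a measured 123 to 228 FPKM, and 0.17 to 10.3 FPKM in the treated ones. In those 4 treated libraries Gadd45b was at 0.17 to 0.51 FPKM. Csrp1, a relative of Csrp3, ran from 13.7 to 76.0 FPKM, while Csrp2 did not exceed 0.69 FPKM. Of the basic leucine zipper genes near Atf3, Jun ran from 28.4 to 156 FPKM, Atf5 from 474 to 1105 FPKM and Jdp2 from 2.33 to 18.6 FPKM, and Jdp2 was highest in the 4 libraries in which Atf3 was lowest, as were 5.23% of all tested genes. Batf was listed at 0 throughout.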
